A study of Mus musculus with 9 samples.

Results

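Tmem119, Gpr34, Selplg, Slc2a5, Fcrls, Olfml3, Sparc and Cst3 are 8 genes of resting, homeostatic microglia whose products sit on the cell surface or are secreted. They were taken by symbol from a table of 45664 gene symbols, and all 8 passed the filter on low counts that left 13067 genes. Microglia are the brain's own macrophages. Here they had been sorted from visual cortex, in male C57BL/6 mice at adolescence, as cells that excluded propidium iodide, carried CD11b and had low CD45, and the RNA of each mouse was sequenced as 1 library. The saline group was 5 mice injected under the skin with saline from postnatal day 4 to postnatal day 9 and aged 36, 30, 35, 29 and 30 days at collection (saline 1 to 5). The ethanol group was 4 mice that received ethanol over the same days, 1.8 g per kg in a 20% v/v solution in each of 2 daily injections given 2 h apart, or 3.6 g per kg a day, and that were 35, 35, 30 and 30 days old (ethanol 1 to 4). The mice came from 3 litters, but which mouse came from which litter is unknown here. Only males were studied.

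Homeostatic microglia survey the tissue with fine processes and keep a set of transcripts that sets them apart from other macrophages. The set depends on the ETS transcription factor PU.1 and on transforming growth factor beta, which signals through SMAD proteins. Its surface members include receptors, an adhesion ligand and a sugar transporter, and its secreted members include a matrix glycoprotein and a protease inhibitor. Several of these genes are known to fall when microglia turn reactive, which is why they are read as a measure of the resting state.

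The levels of the 8 genes were correlated across the libraries, with values given further on. The sequence just before the RefSeq start is shown for 3 of them, and its part in that correlation was not tested. RefSeq promoter sequences on build GRCm38.p6 matched 5 of the 8 genes, namely Olfml3, Sparc, Slc2a5, Cst3 and Fcrls. Each window was the 250 bases before the RefSeq start, searched on both strands for GAGGAA, a core that PU.1 binds. In the first pair of sequences, 5′ to 3′ on the strand of the gene, capitals mark that core.
Cst3, chr2:148875513-148875762, minus strand: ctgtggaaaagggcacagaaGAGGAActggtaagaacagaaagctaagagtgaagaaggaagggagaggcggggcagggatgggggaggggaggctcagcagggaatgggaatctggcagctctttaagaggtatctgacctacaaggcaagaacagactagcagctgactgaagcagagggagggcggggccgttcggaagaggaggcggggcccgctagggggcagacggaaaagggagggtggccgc
Fcrls, chr3:87263525-87263774, minus strand: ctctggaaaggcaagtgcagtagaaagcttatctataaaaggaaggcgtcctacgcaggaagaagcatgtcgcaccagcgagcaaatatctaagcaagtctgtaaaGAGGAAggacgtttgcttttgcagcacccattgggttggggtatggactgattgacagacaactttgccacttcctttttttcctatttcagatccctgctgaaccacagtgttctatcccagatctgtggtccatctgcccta

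GAGGAA was present in Cst3, 230 bases before the RefSeq start, and in Fcrls, 144 bases before it. That is 2 of 5 windows, against 23.3% of 32851 promoter windows of the same length. The core of SMAD-binding elements, CAGAC, was found in 4 of the 5 windows (all but Olfml3), against 42.2% of all windows. Slc2a5 held 4 copies of it, marked by capitals in its window.
Slc2a5, chr4:150119094-150119343, plus strand: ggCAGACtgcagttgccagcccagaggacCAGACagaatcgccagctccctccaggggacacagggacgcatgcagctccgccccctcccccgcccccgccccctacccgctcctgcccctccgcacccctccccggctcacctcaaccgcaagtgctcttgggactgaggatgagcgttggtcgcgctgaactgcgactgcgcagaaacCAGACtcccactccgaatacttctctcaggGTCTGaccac

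The ETS core GGAAGT was in 1 of 5 windows (Fcrls, 19.7% of all windows), and the AP-1 element TGANTCA in 0 of 5 (6.75% of all windows). The GAGGAA and GGAAGT patterns can share bases, and these matches describe letters in short windows, not bound sites.

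All 8 are protein-coding genes in the GENCODE M21 annotation of GRCm38. Tmem119 (chr5:113793729-113800516) and Selplg (chr5:113818536-113832644) are neighbours on the minus strand, 18020 bases apart. Gpr34 (chrX:13632089-13640858, plus strand) lies inside Cask, which is on the opposite strand, and the annotated exons of the pair share 0 bases. The others are Olfml3 (chr3:103722222-103738001) and Fcrls (chr3:87250758-87263738) on the minus strand of chromosome 3, Sparc (chr11:55394500-55423183, minus strand), Slc2a5 (chr4:150119283-150144169, plus strand) and Cst3 (chr2:148871722-148875692, minus strand). The RefSeq starts used for the windows above differ from these coordinates for all but Olfml3. By GENCODE, the windows of Cst3, Fcrls and Slc2a5 lie partly inside the gene and that of Sparc wholly. The GAGGAA of Fcrls and its ETS core thus fall inside the annotated gene. So do all CAGAC copies of Cst3, Fcrls and Sparc, and some of those of Slc2a5. The PU.1 core of Cst3 and the other SMAD cores of Slc2a5 lie before the annotated gene. Nothing in the sources says whether counting used strand.

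The libraries held 12816198 to 28859244 counts. All 30 of the other homeostatic microglia genes listed for comparison passed the filter. Transcripts of other cells were low: over 12 markers each, neuronal transcripts summed to 7.23 to 75.3 CPM (counts divided by library total and edgeR's TMM factor) in saline and 35.1 to 104 CPM in ethanol libraries, and astrocyte transcripts to 137 to 298 and 162 to 307 CPM. Markers of border macrophages, a related brain population, summed to 39.3 to 91.9 CPM over all libraries, most of it Mrc1 (mean 57.4 CPM). Of 10 lymphocyte markers, 5 had 0 counts in every library and the list summed to 0.336 to 1.33 CPM. In the lists of monocyte and neutrophil, endothelial and pericyte, and oligodendrocyte markers, 4 of 10, 1 of 12 and 1 of 11 had 0 counts throughout, and the sums were 4.69 to 16.0, 59.8 to 89.6 and 199 to 268 CPM. A pair of libraries stood apart. Saline 1 had the lowest neuronal and astrocyte sums. Each library was also compared with the others outside this pair, over 8477 well expressed genes (mean of at least 10 CPM). Ethanol 2 had 658 genes more than 2-fold lower, saline 1 had 41 and the remaining libraries 3 to 9 each. None of the 8 genes was among these lower genes, in any library. The counts and medians of the 8 genes and of the gene lists are given with and without this pair of libraries, and each of the 8 genes is given without it for ethanol.

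The 8 genes were among the most abundant transcripts of the sorted cells. Together they took 4.71% ± 0.302 of all counts in saline (SD, n = 5) and 4.87% ± 0.342 in ethanol libraries (SD, n = 4). Compared per length of transcript, in TPM (counts per kilobase scaled to a common sum, from the merged exon lengths of the annotation), Cst3 led at 58729 ± 3412 TPM (SD, n = 9) and ranked 1 of 41944 genes with a length. Cst3 encodes cystatin C, a secreted inhibitor of cysteine proteases. Tmem119, which encodes a membrane protein used to tell microglia from other macrophages, was next at 8020 ± 482 TPM, 7.32 times lower. Fcrls, which encodes an Fc receptor-like protein of mouse microglia, reached 7321 ± 383 TPM, Selplg 5156 ± 293, Gpr34 4675 ± 433 and Sparc 4565 ± 225 TPM. Selplg encodes P-selectin glycoprotein ligand 1, Gpr34 a G protein-coupled receptor for lysophosphatidylserine, and Sparc a secreted glycoprotein of the extracellular matrix. Olfml3, which encodes a secreted olfactomedin-like glycoprotein, reached 1730 ± 144 TPM, and Slc2a5, which encodes the fructose transporter GLUT5, was lowest at 1124 ± 116 TPM (rank 76).

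The steps from Cst3 to Tmem119, from Fcrls to Selplg, from Sparc to Olfml3 and from Olfml3 to Slc2a5 were larger than the spread between libraries, whose ranges did not overlap. The other neighbours in this order overlapped. Tmem119 lay above Fcrls in 8 of 9 libraries, Selplg above Gpr34 in 9 of 9, and Gpr34 above Sparc in 6 of 9. With the length of the longest annotated transcript in place of merged exons, the middle of the order changed: Selplg (7377 TPM) came next after Cst3, Tmem119 (6418 TPM) followed, and Sparc (5826 TPM) and Fcrls (5826 TPM) lay together above Gpr34 (3627 TPM). Cst3 stayed first (67002 TPM), with Olfml3 (1511 TPM) and Slc2a5 (938 TPM) in the last places. Which transcripts these cells use was not measured, so the order of the middle genes rests on the length chosen.

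**Figure D1:**
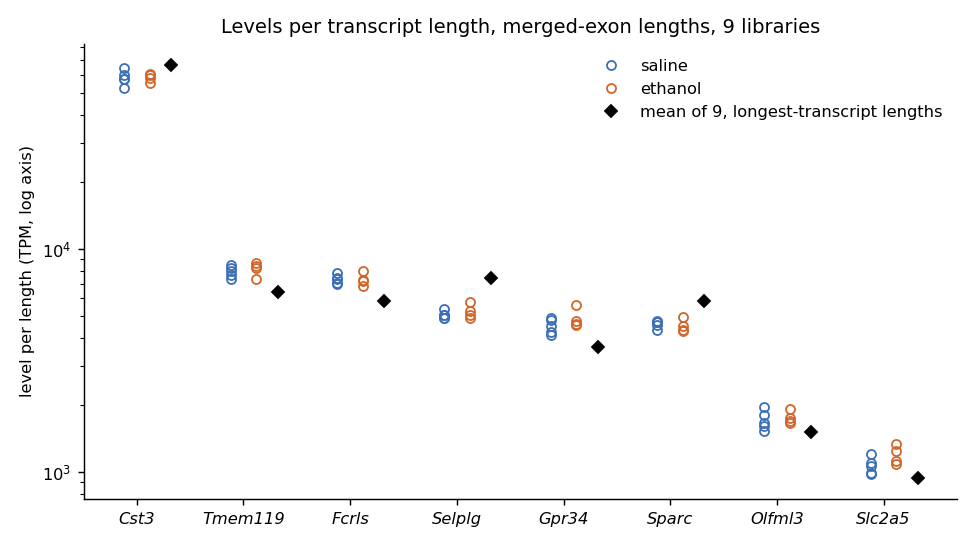
Level per length of the 8 genes, in TPM on a log axis, in order of their mean. Circles are the 9 libraries with merged exon lengths (blue saline, orange ethanol) and diamonds the mean of the 9 libraries with longest-transcript lengths. Cst3 (mean 58729 TPM) lies far above the others, and the diamonds of Selplg and Sparc lie above their circles while those of Tmem119, Fcrls and Gpr34 lie below.

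Early ethanol left no detectable change in any of the 8 genes in adolescence. At an adjusted p under 0.05 (edgeR's quasi-likelihood test, Benjamini-Hochberg over all genes), 0 of 8 were called, and the share called among all 13067 genes was 0%. Without adjustment, 0 of the 8 and 386 of all genes had a p under 0.05, and DESeq2 and limma-voom also called 0 genes (435 and 512 genes at an unadjusted p under 0.05). In bulk RNA, fewer cells of a type and less RNA per cell cannot be told apart, so these values speak of the RNA of the sorted pool. P-values measure the spread between mice together with that of sorting and library preparation.

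Among the surface genes, Tmem119 was at 5459, 4579, 5228, 5070 and 4719 CPM in saline 1 to 5 and at 5387, 5403, 5702 and 4524 CPM in ethanol 1 to 4. Its highest and its lowest library were both from ethanol mice, so the ethanol values enclosed the saline values. The means were 5011 ± 362 CPM (SD, n = 5) and 5254 ± 508 CPM (SD, n = 4), a log2 fold change of 0.07 ± 0.08 (SE) with a 95% interval from -0.11 to 0.25 (adjusted p = 0.963, edgeR). It was 0.09 without saline 1 and ethanol 2, and between 0.03 (without ethanol 3) and 0.13 (without ethanol 4) with single libraries left out.

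Gpr34, the lysophosphatidylserine receptor, was at 2875, 2759, 2371, 2368 and 2508 CPM in saline 1 to 5 and at 2648, 3339, 2824 and 2560 CPM in ethanol 1 to 4. Ethanol 2 lay above all the other libraries, while ethanol 1, 3 and 4 lay inside the saline range. The log2 fold change was 0.14 ± 0.09 (interval -0.06 to 0.35, adjusted p = 0.963, edgeR), and it was 0.05 without ethanol 2 and 0.10 without saline 1 and ethanol 2.

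Selplg, the selectin ligand, was at 6634, 5800, 5763, 5795 and 5603 CPM in saline and at 6028, 7044, 6419 and 5579 CPM in ethanol libraries. The other 4 saline values lay close together and saline 1 stood above them, and the lowest and the highest library overall were ethanol 4 and ethanol 2. The log2 fold change was 0.08 ± 0.08 (interval -0.09 to 0.26, adjusted p = 0.963, edgeR), and it was 0.02 without ethanol 2, 0.13 without ethanol 4 or saline 1, and 0.06 without saline 1 and ethanol 2.

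Slc2a5, the fructose transporter, was at 1172, 1012, 964, 919 and 899 CPM in saline and at 1055, 1202, 1288 and 982 CPM in ethanol libraries. Ethanol 2 and ethanol 3 lay above all 5 saline libraries, ethanol 1 below saline 1 only, and ethanol 4 inside the saline range. It had the largest difference of the 8, with means of 993 ± 109 CPM (SD, n = 5) and 1132 ± 139 CPM (SD, n = 4). The log2 fold change was 0.19 ± 0.10 (interval -0.03 to 0.41, unadjusted p = 0.0884, adjusted p = 0.963, edgeR). Slc2a5 was also the only one of the 8 to have an unadjusted p under 0.05 under any alternative for ethanol. That was so under 8 of them, for example without saline 1 and ethanol 2 (0.22, unadjusted p = 0.0252) and with other-cell markers as a covariate (0.27, unadjusted p = 0.0079). Its log2 fold change was 0.12 without ethanol 3. No adjusted p for Slc2a5 under an alternative was below 0.793.

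Fcrls, the Fc receptor-like gene, was at 5259, 4667, 4389, 4494 and 4543 CPM in saline and at 4679, 5305, 4835 and 4228 CPM in ethanol libraries. Saline 1 and ethanol 2 were the highest and ethanol 4 was the lowest. The log2 fold change was 0.03 ± 0.08 (interval -0.15 to 0.20, adjusted p = 0.980, edgeR), and it was -0.03 without ethanol 2, 0.08 without ethanol 4 and 0.02 without saline 1 and ethanol 2.

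Of the secreted products, Cst3, the protease inhibitor, was at 23633, 19767, 19505, 21065 and 17862 CPM in saline and at 21362, 21646, 21054 and 18648 CPM in ethanol libraries. All 4 ethanol values lay inside the saline range. The means were 20366 ± 2152 CPM (SD, n = 5) and 20677 ± 1374 CPM (SD, n = 4), a log2 fold change of 0.02 ± 0.08 (interval -0.16 to 0.20, adjusted p = 0.986, edgeR). It was -0.02 without saline 5, 0.08 without saline 1 and 0.06 without saline 1 and ethanol 2.

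Sparc, the matrix glycoprotein, was at 5156, 4821, 4373, 4894 and 4598 CPM in saline and at 4769, 5322, 4665 and 4293 CPM in ethanol libraries. The ethanol values enclosed the saline values, as for Tmem119, and the means differed by less than the SD of either group (4768 ± 298 and 4762 ± 426 CPM). The log2 fold change was 0.00 ± 0.08 (interval -0.17 to 0.16, adjusted p = 0.999, edgeR). It was -0.06 without ethanol 2, 0.04 without ethanol 4 and -0.03 without saline 1 and ethanol 2.

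Olfml3, the olfactomedin-like glycoprotein, was at 3474, 2987, 2727, 2724 and 2501 CPM in saline and at 2986, 2911, 3364 and 2781 CPM in ethanol libraries. Here too the ethanol values lay inside the saline range. The log2 fold change was 0.06 ± 0.10 (interval -0.15 to 0.28, adjusted p = 0.963, edgeR). It depended on single libraries, with 0.01 without ethanol 3, 0.02 without saline 5, 0.14 without saline 1 and 0.15 without saline 1 and ethanol 2.

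**Figure D2:**
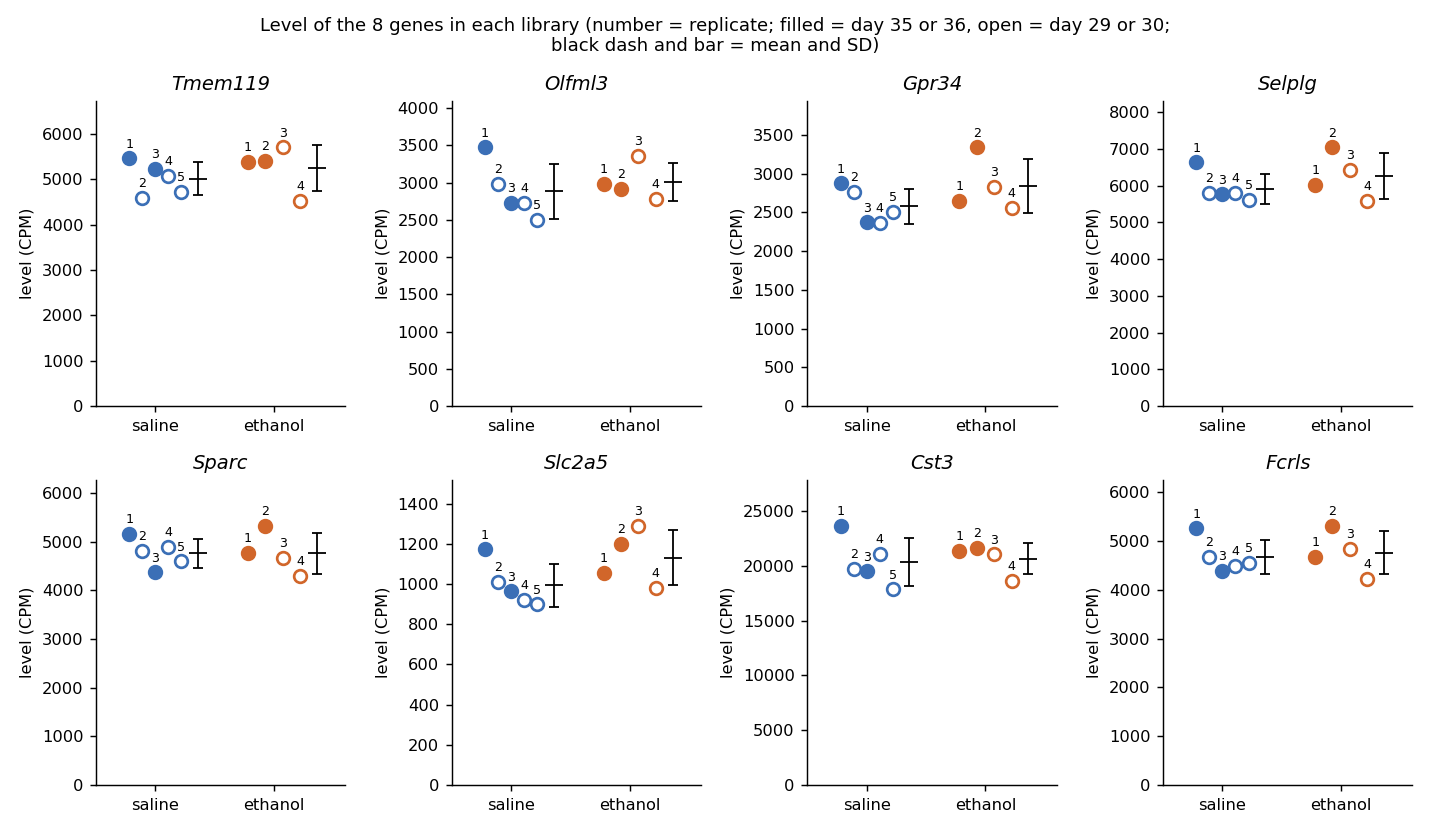
Level of each of the 8 genes in CPM in the 5 saline (blue) and 4 ethanol (orange) libraries. Numbers give the replicate, filled points mice of day 35 or 36 and open points mice of day 29 or 30, and the black dash and bar the mean and SD. The groups overlap for every gene, and saline 1 and ethanol 2 are often the highest of their group.

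The saline and ethanol libraries were fully separated for 0 of the 8 genes and for 1.29% of all 13067 genes. The fold changes lay above 0 for 7 of 8 genes, with a median of 0.07, against a median of 0.00 over all genes. The 95% interval stayed within 1.25-fold in either direction for 6 of the 8, all but Gpr34 and Slc2a5, and for 26.4% of all genes. It stayed within 1.5-fold for all 8, and for 59.4% of all genes. The widest interval, that of Slc2a5, reached 1.33-fold, and the narrowest, that of Sparc, 1.12-fold. Without saline 1 and ethanol 2 the median was 0.08, with 7 of 8 above 0 and 0 called. Single libraries moved it more. The median was 0.03 without ethanol 2 (5 of 8 above 0), 0.03 without saline 5 (6 of 8), 0.02 without ethanol 3 (8 of 8), 0.11 without saline 1 (8 of 8) and 0.12 without ethanol 4 (8 of 8), with 0 called in each case.

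Age was the other contrast the ages of the mice allow, with days 35 and 36 (4 mice) set against days 29 and 30 (5 mice) and ethanol as a covariate. Except for saline 4, libraries with the same suffix in their names came from the same age cohort. What the suffix means is unknown here, and neither the age nor the interaction fits included it. Differences by age and by suffix could therefore hardly be told apart. None of the 8 genes was called (0 of 8, adjusted p = 0.973 for each, edgeR), and the share called among all genes was 0%. Of all genes, 372 had an unadjusted p under 0.05 (451 with DESeq2 and 439 with limma-voom, which also called 0). All 8 estimates lay above 0, from 0.07 ± 0.10 for Olfml3 to 0.13 ± 0.08 for Cst3 (SE), with a median of 0.10 against -0.02 over all genes, and all 8 intervals stayed within 1.25-fold. Tmem119 was at 5369 ± 99.2 CPM in older mice (SD, n = 4) and 4919 ± 487 CPM in younger mice (SD, n = 5), and the ranges overlapped because ethanol 3, a younger mouse, had the highest value of all. The older and younger libraries of none of the 8 were fully separated (0 of 8), and 1.24% of all genes were. The direction rested on saline 1 and ethanol 2 together, both from older mice. Without the pair 3 of 8 estimates lay above 0 and their median was -0.02. Saline 3 and ethanol 1 were then the only older mice left. Without saline 1 alone 7 of 8 lay above 0, and without ethanol 2 alone 8 of 8.

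The difference between ethanol and saline was not found to depend on age. In the test of the interaction of ethanol with age, 0 of the 8 genes and 0% of all genes were called by edgeR (423 genes with an unadjusted p under 0.05), 1 gene by DESeq2 (442) and 0 by limma-voom (585). The estimates lay on both sides of 0, from -0.24 ± 0.20 for Olfml3 to 0.17 ± 0.15 for Sparc (SE). In saline mice Sparc was at 4764 ± 554 CPM in older (SD, n = 2) and 4771 ± 154 CPM in younger mice (SD, n = 3), and in ethanol mice at 5046 ± 391 and 4479 ± 263 CPM (SD, n = 2 each). These groups of 2 and 3 mice gave wide intervals, which stayed within 1.25-fold for 0 of 8 genes and within 2-fold for all 8. Leaving out saline 1 and ethanol 2 gave 5 of 8 estimates above 0 (median 0.05, against 4 of 8 and -0.01 in all libraries). In that fit saline 3 and ethanol 1 were the only older mice. Without ethanol 1, 848 genes were called and none of the 8 was among them.

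**Figure D3:**
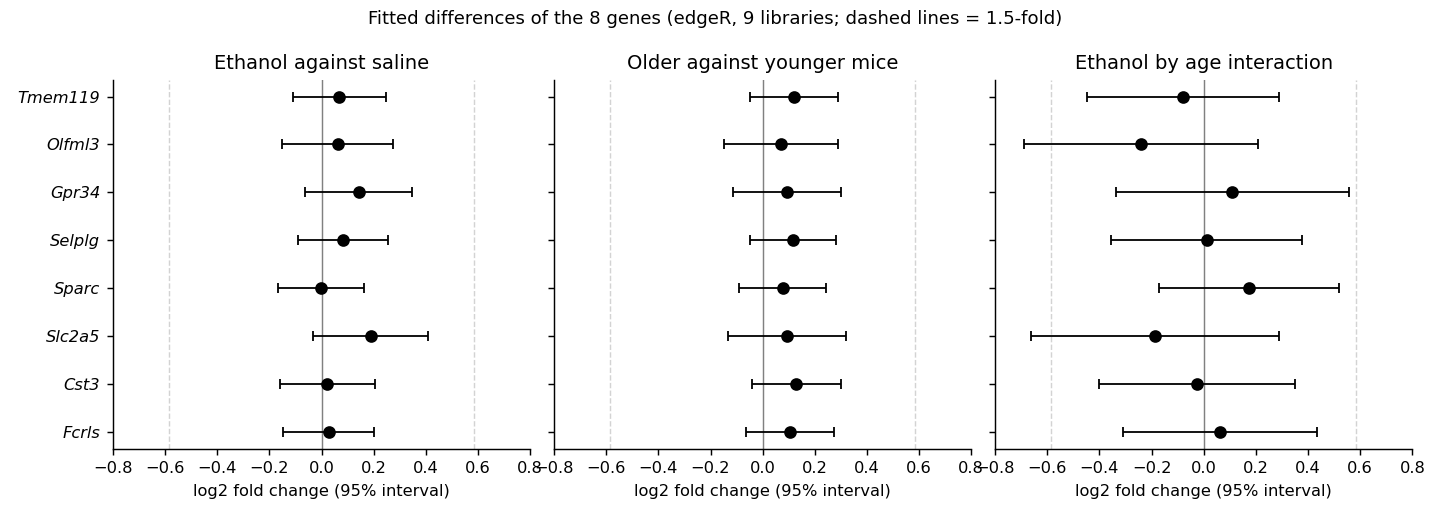
Fitted log2 fold changes of the 8 genes with 95% intervals for ethanol against saline, older against younger mice, and the interaction of both. Solid lines mark 0 and dashed lines 1.5-fold. Every interval crosses 0, all intervals of the first and second panels stay inside the dashed lines, and those of the interaction are wider.

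The 8 genes varied little between mice. Their coefficient of variation over the 9 libraries ran from 7.03% (Sparc) to 12.9% (Slc2a5), with a median of 8.47%. The median was 16.1% over all tested genes and 9.31% over the 82 other genes at or above the mean CPM of Slc2a5. Counting error was small beside it: the fewest counts were 13303, for Slc2a5 in ethanol 1, which gives a counting error of 0.867%.

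What variation there was, the genes shared. All 8 lay above the mean of the other libraries in saline 1, and 7 of 8 did so in ethanol 2 (all but Olfml3) and in ethanol 3 (all but Sparc). All 8 lay below it in saline 5 and in ethanol 4. The summed level of the 8 was 53661 and 52172 CPM in saline 1 and ethanol 2, and 43233 and 43594 CPM in saline 5 and ethanol 4. Each treatment thus had a library at both ends.

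Over the 9 libraries the correlation of log2(CPM + 1) was above 0 for 28 of 28 pairs, with a median Pearson r of 0.745, as a description of libraries that share their scaling. The strongest pair was Selplg and Fcrls (0.938) and the weakest Tmem119 and Gpr34 (0.383). Over all pairs of 8477 genes with a mean of at least 10 CPM the median was -0.005, with 49.6% above 0. Over pairs of the 82 other genes as abundant as these it was 0.328, with 64.8% above 0, and over pairs of the 30 other homeostatic genes 0.257, with 62.1%. The chromosomal neighbours Tmem119 and Selplg had an r of 0.743, close to the median of all 28 pairs.

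Without saline 1 and ethanol 2 all 28 pairs stayed above 0, with a median of 0.655 and a lowest value of 0.102 (Sparc and Slc2a5). The backgrounds rose in these 7 libraries. Over pairs of the 82 other genes as abundant the median was 0.458, with 80.8% above 0. Over pairs of the 30 other homeostatic genes it was 0.315, with 67.1% above 0. Sparc depended most on those 2 libraries. Its median r with the other 7 genes went from 0.715 to 0.260, whereas that of Selplg went from 0.797 to 0.808. Olfml3, Slc2a5 and Selplg were closely tied in the remaining 7 libraries, with an r of 0.951 for Olfml3 and Slc2a5, 0.914 for Selplg and Slc2a5 and 0.887 for Olfml3 and Selplg.

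**Figure D4:**
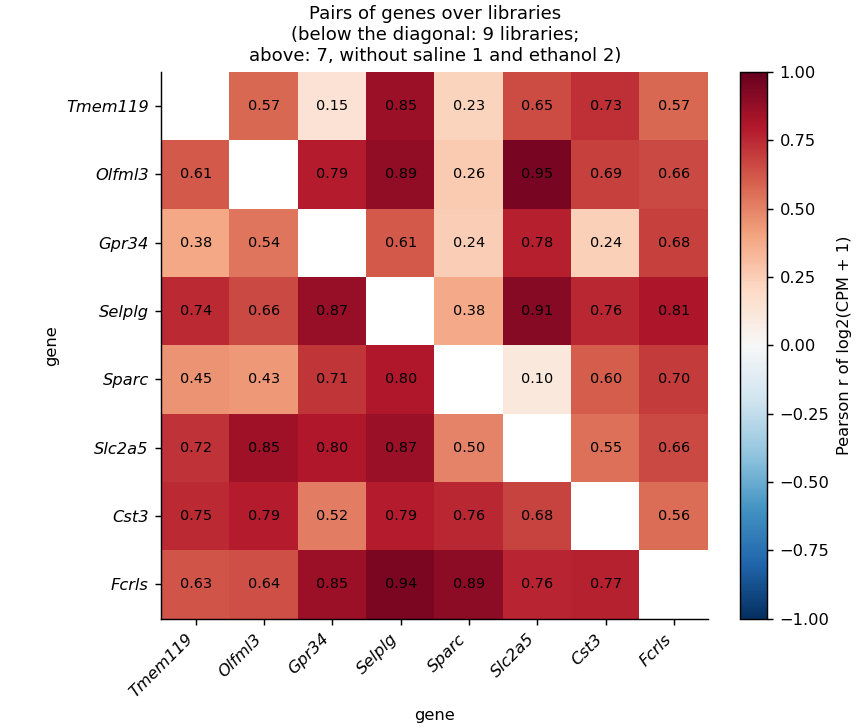
Pearson r of log2(CPM + 1) for each pair of the 8 genes, over 9 libraries below the diagonal and over 7 libraries, without saline 1 and ethanol 2, above it. All values are above 0, and the median over the pairs of Sparc goes from 0.715 below the diagonal to 0.260 above it.

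Several recorded measures moved with this shared variation, and their part in it was not tested. The neuronal marker sum was lowest in saline 1 (7.23 CPM) and highest in ethanol 4 (104 CPM) and saline 5 (75.3 CPM), and its correlation with the 8 genes ran from -0.457 (Gpr34) to -0.866 (Cst3). The astrocyte sum was also highest in ethanol 4 (307 CPM) and saline 5 (298 CPM), and its correlation ran from 0.079 (Gpr34) to -0.669 (Cst3). A large part of this sum was a single marker, S1pr1 (mean 106 CPM). The labels give an RNA integrity number of 9.2, 9.2 and 9.1 for saline 1, ethanol 2 and ethanol 3, in which the genes were high, of 9 for saline 2, and of 9.8 or 9.9 for the other 5. The number of sorted cells in the labels went partly the opposite way to the levels. It was lowest for saline 1 and ethanol 3 and highest for ethanol 4, but saline 5 had fewer cells than ethanol 2. The numbers were 8923, 12579 and 9291 for saline 1, ethanol 2 and ethanol 3. They were 11603 and 19071 for saline 5 and ethanol 4, in which the genes were low, and 9934 to 17832 for the other 4.

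With the summed neuronal, astrocyte and oligodendrocyte markers as a covariate, all 8 estimates for ethanol lay above 0, with a median of 0.14 and 0 called. With the RNA integrity number as a covariate the median was 0.06 (7 of 8 above 0), and with the number of sorted cells 0.03 (6 of 8 above 0), again with 0 called.

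**Figure D5:**
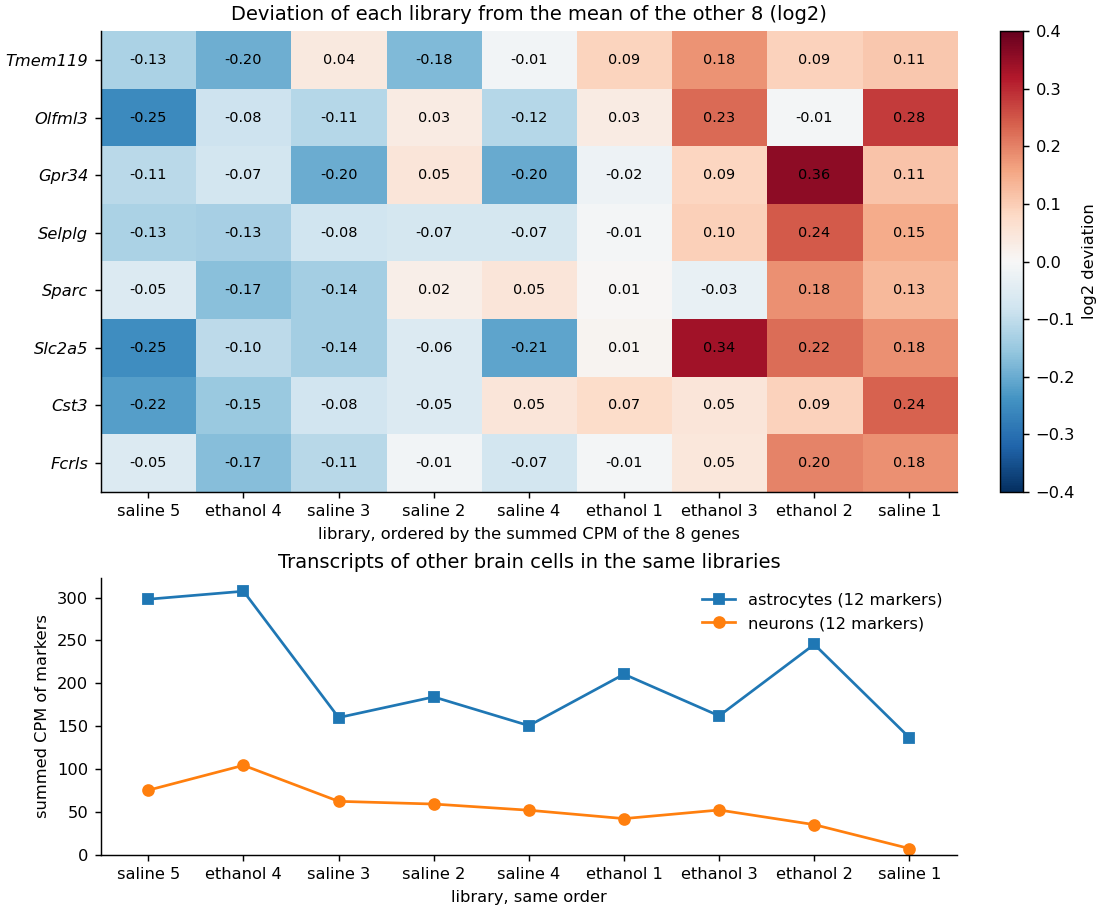
Upper panel, log2 deviation of each of the 8 genes in each library from the mean of the other 8 libraries, with libraries in order of the summed CPM of the genes. Lower panel, summed CPM of astrocyte and neuronal markers in the same libraries. Saline 5 and ethanol 4 at the left are below 0 for all 8 genes and saline 1 at the right above 0, and the neuronal sum is lowest in saline 1.

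For each of the 8 genes, the gene most like it over the 9 libraries was sought among 8236 others with a mean of at least 10 CPM. Selplg was most like Edem2, which encodes a mannosidase-like protein of the endoplasmic reticulum (Pearson r 0.983, Spearman rho 0.950). Gpr34 was most like Toe1, an exonuclease gene (0.975 and 0.967), and Fcrls most like Tcn2, the gene of the vitamin B12 carrier transcobalamin 2 (0.975 and 0.950). Cst3 was most like Senp8, a gene of a NEDD8-specific protease (0.964 and 0.917).

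Slc2a5 was most like Vps53, a gene of endosome-to-Golgi transport (0.956 and 0.883), and Sparc most like Ap3m2, an adaptor complex subunit gene (0.953 and 0.850). Olfml3 was most like Tkt, which encodes transketolase of the pentose phosphate pathway (0.930 and 0.950), and Tmem119 most like Pigk, a gene of GPI anchor attachment (0.929 and 0.933). These are the best of 8236 genes over 9 points. In the 7 libraries without saline 1 and ethanol 2 a different gene was the most alike for each of the 8, although r stayed between 0.872 (Ap3m2) and 0.936 (Toe1 and Vps53).

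The partners of these products in their pathways showed no called change with ethanol either. Among the enzymes and selectins behind the selectin ligand, 4 of 11 tested genes lay above 0 and 7 below (median -0.06). St3gal6, a sialyltransferase gene, was at 409 ± 44.3 CPM in saline (SD, n = 5) and 418 ± 51.6 CPM in ethanol (SD, n = 4). C1galt1, a gene of O-glycan core synthesis, had a log2 fold change of -0.23 ± 0.14 (SE), which was -0.14 without ethanol 2 and -0.07 without saline 1 and ethanol 2. Without that pair of libraries the list had 4 of 11 above 0 and a median of -0.07.

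Among cystatins and the cysteine proteases that cystatin C inhibits, 9 of 11 lay above 0 (median 0.08). Ctss, the gene of cathepsin S, was at 5818 ± 381 and 5964 ± 452 CPM, and Ctsl, of cathepsin L, had a log2 fold change of 0.15 ± 0.08. Again 9 of 11 lay above 0 without saline 1 and ethanol 2 (median 0.08).

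Among hexose transporters and enzymes of fructose metabolism, the genes nearest in role to Slc2a5, 10 of 12 lay above 0 (median 0.11). Khk, which encodes the ketohexokinase that phosphorylates fructose, averaged 64.0 ± 4.28 and 69.8 ± 6.03 CPM (log2 fold change 0.13 ± 0.09). Aldoa, an aldolase gene of glycolysis, had one of 0.05 ± 0.10. The list had 7 of 12 above 0 without saline 1 and ethanol 2 (median 0.04), with Khk at 0.08 and Aldoa at -0.02.

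In the lysophosphatidylserine list, 5 of 10 tested genes lay above 0 (median 0.04). They were enzyme genes and the purinergic receptor genes P2ry12 and P2ry13. The listed receptor genes Gpr174 and P2ry10 were at 0 CPM in every library and were not tested. P2ry12, which is related to Gpr34, was at 8051 ± 959 and 8774 ± 1065 CPM. Among Fc receptor genes 5 of 8 lay above 0 (median 0.04). The log2 fold change was 0.03 ± 0.10 for Fcgr3, an activating Fc gamma receptor gene, and 0.12 ± 0.12 for Fcrl1. In the SPARC and olfactomedin families 5 of 9 did (median 0.07). Olfml2b was at 114 ± 16.5 and 119 ± 21.2 CPM, and Olfm2, at under 1.39 CPM in every library, had a log2 fold change of 0.72 ± 0.49. When saline 1 and ethanol 2 were left out, 7 of 10 genes of the lysophosphatidylserine list lay above 0 (median 0.09). So did 4 of 8 Fc receptor genes (median 0.00) and 5 of 9 genes of the SPARC and olfactomedin families (median 0.05). P2ry12 was then at 0.08, Fcgr3 at -0.06, Fcrl1 at 0.00 and Olfml2b at 0.16.

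P2ry12, P2ry13, Tgfbr1 and Ctss stand in these lists and also among the 30 other homeostatic genes. The 30 had a median of 0.04, with 19 above 0, which is near that of the 8 genes. Csf1r, the receptor on which microglia depend for survival, had a log2 fold change of -0.02 ± 0.06. Gas6, which encodes a ligand of TAM receptors, averaged 319 ± 21.2 CPM in saline mice and 376 ± 37.8 CPM in ethanol mice, with a log2 fold change of 0.24 ± 0.08 (unadjusted p = 0.0165, adjusted p = 0.963, edgeR). Among 14 tested genes that rise in disease-associated microglia, 10 lay above 0 (median 0.05). Apoe, which encodes a lipid carrier, had a log2 fold change of 0.12 ± 0.22 and Lgals3, of galectin 3, one of -0.77 ± 0.37 at 0.515 to 2.70 CPM. The medians of these lists without saline 1 and ethanol 2 were 0.04 (23 of 30 above 0) and 0.05 (8 of 14), and Apoe was at -0.12, Lgals3 at -1.05 and Gas6 at 0.19.

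In transforming growth factor beta signalling, on which the homeostatic set depends, 5 of 14 lay above 0 and 9 below (median -0.18). Tgfbr1, a receptor gene, had a log2 fold change of -0.16 ± 0.12 and Ltbp3, of a latency protein, one of -0.43 ± 0.21 at 2.73 to 5.27 CPM. The median of this list rested on ethanol 2. Without that library the median was 0.02 and Tgfbr1 was at -0.05. Without saline 1 and ethanol 2 the median was 0.04, with 9 of 14 above 0, and Tgfbr1 was at -0.07. Ltbp3 changed less, to -0.36 without ethanol 2 and -0.39 without saline 1 and ethanol 2. No gene of these lists was called by edgeR for ethanol, the smallest adjusted p being 0.963, and 2 of the 30 homeostatic genes and 0 of the others had an unadjusted p under 0.05.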

How the data were processed

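The authors deposited raw counts per gene symbol for 9 libraries without normalizing them. Per the submitters' processing notes, reads went through Trimmomatic 0.32, STAR 2.4.2a and HTSeq 0.6.1 on build GRCm38.p4 (order and settings unknown here, as is the annotation). The 8 genes, the gene lists and the tests were chosen with earlier results of these data known.

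Genes were kept by filterByExpr (minimum count 10, minimum total 15), scaled by TMM and tested with edgeR 4.0.16 (R 4.3.3) on all 13067 genes, with a quasi-likelihood F test and Benjamini-Hochberg adjustment. Standard errors come from the fold change and F, and 95% intervals from the degrees of freedom. TPM used GENCODE M21 lengths, matched by symbol for 12408 tested genes (95.0%). The procedure was tested on simulated data. Library totals were 12816198 to 28859244 counts, and counting errors cover sampling of reads only.

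The comparisons were ethanol against saline, older against younger mice, and their interaction. Alternatives were DESeq2 1.42.0, limma-voom (limma 3.58.1) with sample weights, RLE or plain scaling, no or stricter filtering, libraries left out, covariates, single age cohorts, saline mice alone, and a block for replicate number. RNA integrity and sorted cells as covariates were added after the data were seen.

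Genes beyond the 8 were named by rule: from each list the gene with the highest mean CPM and the gene with the smallest p for ethanol, and for each of the 8 the gene with the highest Pearson r of log2(CPM + 1), passing over predicted genes, Rik genes and pseudogenes. From each list of other cells the marker with the highest mean is Camk2a (29.4 CPM), S1pr1 (106 CPM), Cnp (100.4 CPM), Pecam1 (62.4 CPM), Mrc1 (57.4 CPM), Ccr2 (6.56 CPM) and Klrb1c (0.418 CPM), for neurons, astrocytes, oligodendrocytes, vessels, border macrophages, monocytes with neutrophils, and lymphocytes.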

Additional observations from a re-analysis of the deposited data

Results flagged for a closer look

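Selplg stood out in 1 library. Its level in saline 1 was 6634 CPM, while the other 4 saline libraries lay between 5603 and 5800 CPM, and this gap was larger than Dixon's criterion for an outlying value allows in a group of 5. The 8 genes in 2 groups gave 16 such groups of values, and chance flags about 1 in 20. The neuronal marker sum of saline 1 was also the lowest of all libraries, at 7.23 CPM. Without saline 1 the log2 fold change of Selplg for ethanol was 0.13, against 0.08 with it.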

How the results depend on the processing

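Over the results reported and their alternatives, 915 of 1017 recomputed values kept their direction and side of the threshold, 0 lost a call and 74 changed sign, among differences that were not called. The other 28 moved, and are given below. They were numbers of genes called for age or the interaction, levels per length, and the genes most alike. For the 8 genes under ethanol, 174 of 192 kept their direction. Tmem119, Gpr34, Selplg and Slc2a5 stayed above 0 throughout. No alternative called any of the 8 in any comparison. The limits are those of 5 and 4 mice: intervals for ethanol reach 1.12-fold (Sparc) to 1.33-fold (Slc2a5), litters cannot be modelled, and the counting error of the 8 genes was at most 0.867% (13303 counts). The cause of the changes of sign was not tested.

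For ethanol against saline, 0 genes were called under every alternative. Where the log2 fold change changed sign, its values were as follows. In older mice alone it was -0.0731 (Olfml3), 0.0822 (Sparc), -0.0048 (Cst3) and -0.0731 (Olfml2b). With plain library sizes it was 0.0019 (Sparc). With the library-name suffix as a covariate it was 0.0252 (Sparc) and 0.0082 (Csf1r). With other-cell markers as a covariate it was 0.0366 (Sparc) and 0.0139 (Csf1r). With sorted cells as a covariate it was -0.0041 (Cst3). In younger mice alone it was -0.0147 (Fcrls), -0.0474 (Aldoa), -0.2895 (Apoe), -0.0862 (Fcgr3), -0.0087 (Fcrl1) and -0.1235 (St3gal6). With limma-voom it was -0.0138 (Aldoa), -0.0753 (Apoe), 0.0044 (Csf1r), -0.0364 (Fcgr3) and -0.0178 (St3gal6). Without saline 1 and ethanol 2 it was -0.0208 (Aldoa), -0.1163 (Apoe), 0.0129 (Csf1r), -0.0603 (Fcgr3), -0.0038 (Fcrl1) and -0.0735 (St3gal6). Leaving out 1 library at a time gave 0.0269 to 0.1337 for Tmem119, 0.0051 to 0.1387 for Olfml3, 0.0520 to 0.1892 for Gpr34, 0.0180 to 0.1345 for Selplg and 0.1203 to 0.2549 for Slc2a5, and, with a change of sign, -0.0631 to 0.0449 for Sparc, -0.0211 to 0.0811 for Cst3, -0.0316 to 0.0810 for Fcrls, -0.0616 to 0.1211 for Aldoa, -0.0845 to 0.2727 for Apoe, -0.0424 to 0.0084 for Csf1r, -0.0574 to 0.0890 for Fcgr3, -0.0336 to 0.2045 for Fcrl1, -0.0621 to 0.1478 for Olfml2b and -0.0633 to 0.0982 for St3gal6.

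For age, 97 genes were called without a count filter and 3 without saline 1 and ethanol 2, against 0. Where the log2 fold change changed sign, its values were as follows. Without saline 1 and ethanol 2 it was -0.0250 (Olfml3), -0.0676 (Gpr34), -0.0247 (Sparc), -0.0353 (Slc2a5) and -0.0110 (Fcrls). In saline mice alone it was -0.0034 (Sparc). Leaving out 1 library gave -0.0368 to 0.1459 for Olfml3. For the interaction, DESeq2 called 1 gene and the fit without a count filter 53, and leaving out 1 library gave 0 to 848 genes, the highest without ethanol 1, where 1 older ethanol mouse is left and is assumed to vary like the other groups. Where its log2 estimate changed sign, the values were these. With plain library sizes it was 0.0033 (Cst3). Without saline 1 and ethanol 2 it was 0.1191 (Cst3). Leaving out 1 library gave -0.2371 to 0.0973 for Tmem119, -0.0695 to 0.2990 for Gpr34, -0.1079 to 0.1506 for Selplg, -0.3693 to 0.0231 for Slc2a5, -0.1586 to 0.1191 for Cst3 and -0.0649 to 0.1969 for Fcrls.

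The labels number the replicates, and same-numbered libraries did not deviate together (correlations of deviations 0, -0.055, -0.079 and -0.101). Whether same-numbered mice shared a litter or another factor is unknown here, and these correlations cannot show it. With the replicate number as a block, 0 genes were called for ethanol (240 with an unadjusted p under 0.05, against 386) and 0 for age (801, against 372). Under the block the log2 fold change for ethanol was -0.0200 for Cst3 and -0.0082 for St3gal6, and for age -0.1701 for Olfml3 and -0.0856 for Slc2a5. The interaction was not fitted with the block.

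Levels per length moved by more than the SD over libraries with longest-transcript lengths, to 6418.1 TPM (Tmem119), 1511.4 TPM (Olfml3), 3626.5 TPM (Gpr34), 7376.7 TPM (Selplg), 5826 TPM (Sparc), 938.09 TPM (Slc2a5), 67002 TPM (Cst3) and 5825.8 TPM (Fcrls). Ranked by Spearman rho, another gene came first for 7 of the 8, the rho of the named gene being 0.933 (Pigk), 0.967 (Toe1), 0.950 (Edem2), 0.850 (Ap3m2), 0.883 (Vps53), 0.917 (Senp8) and 0.950 (Tcn2). Without saline 1 and ethanol 2 another gene came first for all 8, the r of the named gene being 0.931 (Pigk), 0.925 (Tkt), 0.936 (Toe1), 0.932 (Edem2), 0.872 (Ap3m2), 0.936 (Vps53), 0.926 (Senp8) and 0.896 (Tcn2).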
